A study of Mus musculus with 14 samples.

Results

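The genes described here are 8 coinhibitory receptors and surface enzymes of T cells, Pdcd1, Ctla4, Lag3, Havcr2, Tigit, Btla, Cd160 and Nt5e, together with Cd274, which encodes PD-L1. They were taken by gene symbol from the deposited tables of normalized counts, and all 9 were listed in both tables, among 15036 genes in all. The cells were naive CD8 T cells, sorted as CD62L high and CD44 low from spleens of C57BL/6 mice. All groups received plate-bound anti-CD3 at 1 µg/mL and soluble anti-CD28 at 1 µg/mL for 6 h. Without IFN-beta there were 3 libraries of wild type and 3 labelled Morrbid-/-. With IFN-beta1 at 20 ng/mL there were 4 of each genotype, which makes 14 libraries in 4 groups. Morrbid is a long noncoding RNA near the gene of the pro-apoptotic protein BIM. The labels give neither the age or sex of the mice nor the deleted stretch, and they do not say whether libraries came from separate animals, so p-values measure only the scatter of these samples, and that scatter may be technical.

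Coinhibitory receptors limit T cell activation after the antigen receptor and CD28 have been engaged. CTLA-4 competes with CD28 for the ligands CD80 and CD86, and PD-1, encoded by Pdcd1, is engaged by PD-L1 and recruits phosphatases to the receptor complex. PD-L1 is itself made by activated T cells and is a known target of interferon signalling and IRF1, while several of the receptors are switched on by NFAT and other factors downstream of the antigen receptor.

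Morrbid, listed under its model name, had few reads, and they did not separate the genotypes in the direction of a deletion. Without IFN-beta, the wild-type libraries had 2, 4 and 2 reads and the libraries labelled Morrbid-/- had 7, 4 and 7. Relative to depth, the ratio was 2.80 (95% counting interval 1.16 to 7.43), higher under the Morrbid-/- label. With IFN-beta, Morrbid was listed under neither name, so the genotype labels of that setting could not be compared this way. Every direction below is taken from the labels, and the compared libraries are called by them. Whether the genotype labels are exchanged was not tested, and an exchange would reverse each direction. Total reads per library were 1747634 to 2963149 without IFN-beta and 5788070 to 7355337 with it. With IFN-beta, the totals of the libraries labelled Morrbid-/- (7132515 to 7355337) all lay above those of wild type (5788070 to 6918633). The 6 CD8 T cell markers, Cd8a, Cd8b1, Cd3e, Cd3d, Cd3g and Lck, were present in all 14 libraries. Their summed normalized counts were 3478 to 4182 in wild type and 3250 to 3710 in the libraries labelled Morrbid-/- without IFN-beta. With IFN-beta, normalized separately, they were 8285 to 8880 and 7692 to 8862. The log2 difference was below 0 for all 6 in both settings (medians -0.14 and -0.096), and 0 of the 6 were called.

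The promoters of Cd274 and Ctla4 are shown because these genes had the largest called differences among the 9, in different settings. Each run is the 250 bases before a transcription start in RefSeq (GRCm38.p6), 5′ to 3′ on the gene's strand, with the NFAT core GGAAA or its reverse complement TTTCC in capitals. The Cd274 window is chr19:29367188-29367437 (+), ahead of a start inside the annotated gene span. The Ctla4 window is chr1:60908775-60909024 (+), directly ahead of the gene in RefSeq. In GENCODE the Ctla4 span starts at 60887000, so the window lies inside it.
Cd274: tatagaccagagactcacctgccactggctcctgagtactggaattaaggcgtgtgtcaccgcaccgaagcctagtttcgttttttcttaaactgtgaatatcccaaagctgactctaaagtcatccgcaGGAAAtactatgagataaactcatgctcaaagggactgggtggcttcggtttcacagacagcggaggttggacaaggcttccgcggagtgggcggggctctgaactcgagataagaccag
Ctla4: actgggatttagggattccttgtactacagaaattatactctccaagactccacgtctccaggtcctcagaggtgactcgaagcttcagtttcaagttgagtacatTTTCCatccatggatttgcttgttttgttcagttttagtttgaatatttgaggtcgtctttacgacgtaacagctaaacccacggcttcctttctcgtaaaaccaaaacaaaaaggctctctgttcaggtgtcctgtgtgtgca
RefSeq entries were matched for 8 of the 9 genes, as 9 windows, and all motifs were searched on both strands. The interferon-stimulated response element core (GAAA, any 2 bases, then GAAA) was in 0 of the 9 windows and in 2.98% of the 32851 promoter windows of all genes. The interferon-gamma activated site TTCNNNGAA was in the windows of 1 gene, Cd160 (7.02% of all windows). The AP-1 site TGANTCA was in the window of 1 gene, Havcr2 (6.75% of all windows). The NF-kB consensus was in 0 of the 9 windows and in 3.90% of all windows. The NFAT core was in the windows of 5 genes, Ctla4, Pdcd1, Cd160, Tigit and Cd274, and in 55.6% of all windows, so its presence does not set these genes apart. A match is a description of letters and not evidence of binding.

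Cd274 lies on chromosome 19 (29362107 to 29388095, plus strand, GRCm38). It is a multi-exon gene, and 396 of its 3622 exon bases overlap an annotated antisense transcript, AC119228.1. Whether the counting used strand is not given in the sources used here, and reads of that overlap may belong to either transcript. Ctla4 (60909025 to 60915832, plus strand) and Pdcd1 (94038305 to 94052553, minus strand) lie on chromosome 1. Nt5e lies on chromosome 9 (88327609 to 88372089, plus strand) and Lag3 on chromosome 6 (124904359 to 124912434, minus strand). The exons of the 8 genes other than Cd274 overlapped no other annotated exon.

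The question of the first comparison was how the genotypes differ after stimulation without IFN-beta. The ligand Cd274 was the member that changed: it was higher in the libraries labelled Morrbid-/-. Its normalized counts were 274, 180 and 253 in wild type, against 389, 453 and 423 in those labelled Morrbid-/-. The genotypes did not overlap, and the lowest library labelled Morrbid-/- lay above the highest wild-type library. The means were 236 ± 49.2 (SD, n = 3) in wild type and 422 ± 31.9 (SD, n = 3) in the libraries labelled Morrbid-/-. The log2 difference was 0.86 (SE 0.13, 95% interval 0.59 to 1.12, limma adjusted p = 2.34e-04). In these bulk samples, a different number of cells making a transcript and a different amount of it per cell cannot be told apart.

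Of the 7 members with a mean of at least 10, which were the ones tested, Cd274 was the 1 called higher, and 0 were called lower. Of the 9290 genes tested in this comparison, 0.635% were called, 0.538% higher and 0.0969% lower. The call for Cd274 held when any 1 of the 6 libraries was left out, with log2 differences of 0.68 to 0.98, and it was lost when limma was run without its mean-variance trend (adjusted p = 0.261). The share of reads from mitochondrial 16S RNA varied between libraries, from 11.6% to 18.9%. Cd274 differed by 0.81 on the log2 scale among the 3 libraries with a higher share (2 wild type, 1 labelled Morrbid-/-) and by 0.79 among the 3 with a lower share (1 and 2). With a single library in 1 genotype of each split, these values have no test, and the part of the 16S share in the result was not tested by them.

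Among the receptors, Ctla4 came next in this setting, without passing the test. CTLA-4 is held largely inside the cell and cycles to the surface. Its normalized counts were 48.3, 43.7 and 55.8 in wild type, against 64.9, 78.6 and 62.4 in those labelled Morrbid-/-. The genotypes did not overlap for Ctla4, as for Cd274, while 10.9% of the 9290 tested genes had no overlap in either direction, 5.53% with the libraries labelled Morrbid-/- above and 5.39% with them below. The log2 difference of Ctla4 was 0.47 (SE 0.18, 95% interval 0.091 to 0.85, limma adjusted p = 0.621).

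Btla, a receptor for the herpesvirus entry mediator TNFRSF14, had normalized counts of 219, 155 and 182 in wild type, against 235, 242 and 194 in those labelled Morrbid-/-. The ranges overlapped, with a log2 difference of 0.28 (limma adjusted p = 0.795). Cd160, which binds the same ligand, had 119, 81.2 and 90.2 in wild type, against 96.3, 65.5 and 68.6 in those labelled Morrbid-/-. Its log2 difference was -0.33 (limma adjusted p = 0.854), again with overlapping ranges. Nt5e, which encodes CD73, the ectoenzyme that makes adenosine from AMP, had 163, 176 and 139 against 151, 169 and 144. Its difference was the closest to 0 of the 7 members, -0.037 on the log2 scale with a 95% interval of -0.30 to 0.23.

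Pdcd1 and Tigit were low at 6 h without IFN-beta. Pdcd1 had normalized counts of 30.4, 23.9 and 29.0 in wild type, against 35.5, 22.3 and 29.7 in those labelled Morrbid-/-, a log2 difference of 0.049 with a 95% interval of -0.48 to 0.57. Tigit, a receptor for PVR and nectins, had 23.2, 18.7 and 24.5 against 17.2, 41.9 and 22.5. Library 2 labelled Morrbid-/- gave the highest Tigit value, and the interval of its log2 difference, -0.43 to 0.82, was the widest of the 7.

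Lag3 and Havcr2 were below the mean of 10 and were not tested without IFN-beta. Lag3, which binds MHC class II, had 1, 1 and 2 reads in wild type, against 3, 3 and 4 reads in those labelled Morrbid-/-. Relative to depth the ratio was 3.11 (95% counting interval 0.896 to 13.6). Havcr2, which encodes TIM-3, had 0, 0 and 2 reads in wild type, against 6, 0 and 3 reads in those labelled Morrbid-/-, a ratio of 5.59 (95% counting interval 1.16 to 53.2). These exact intervals cover counting error only and not the spread between libraries, and library 2 labelled Morrbid-/- had no Havcr2 read.

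**Figure D1:**
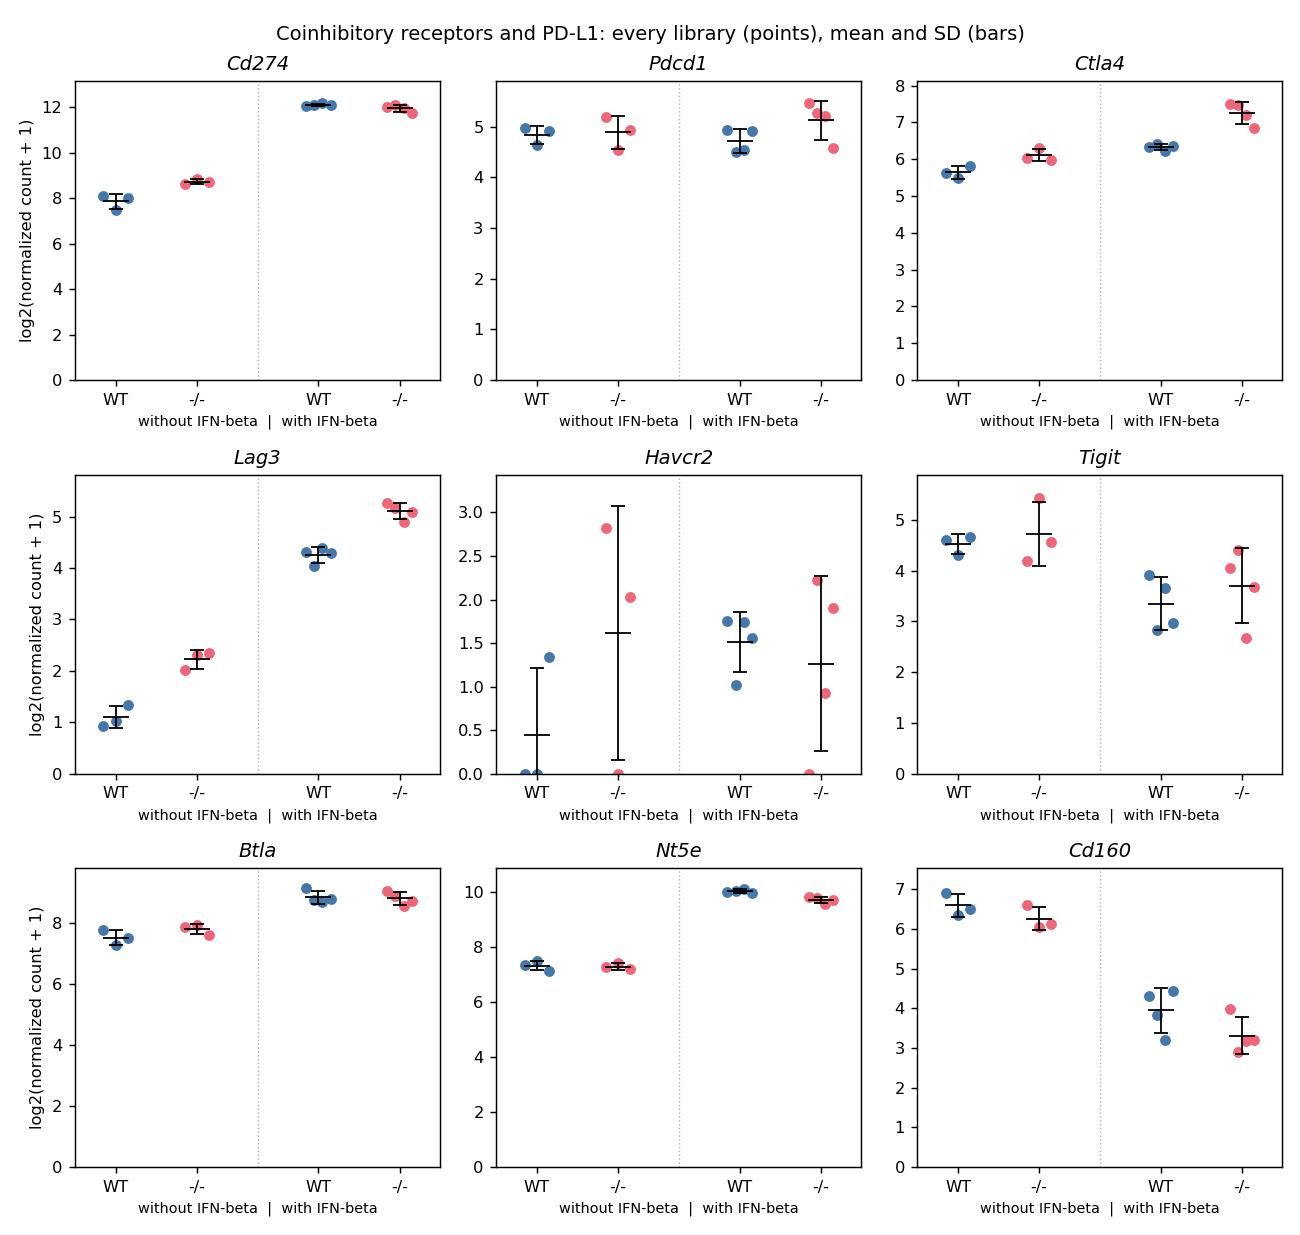
Values of the 9 genes by library, as log2(normalized count + 1) on the vertical axis, for the 4 groups along the horizontal axis. Points are libraries and bars are the mean ± SD (n = 3 without and n = 4 with IFN-beta); the genotypes do not overlap for Cd274, Ctla4 and the few reads of Lag3 without IFN-beta, nor for Ctla4, Lag3 and Nt5e with it.

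The second comparison asked the same of cells given IFN-beta. Here Ctla4 and Lag3 were higher and Nt5e was lower in the libraries labelled Morrbid-/-. Ctla4 had normalized counts of 79.1, 85.0, 73.6 and 81.0 in wild type, against 180, 178, 146 and 115 in those labelled Morrbid-/-. All 4 libraries labelled Morrbid-/- lay above all 4 wild-type libraries, and they spread more widely (79.7 ± 4.75 against 154 ± 30.6, SD, n = 4 each). The log2 difference of Ctla4 was 0.93 (SE 0.14, 95% interval 0.64 to 1.21, limma adjusted p = 7.98e-05).

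Lag3 was low in both genotypes and higher in the libraries labelled Morrbid-/-. Its normalized counts were 18.9, 15.4, 19.9 and 18.6 in wild type, against 37.6, 34.8, 28.8 and 32.8 in those labelled Morrbid-/-. The genotypes did not overlap, with means of 18.2 ± 1.95 and 33.5 ± 3.71 (SD, n = 4 each). The log2 difference was 0.85 (SE 0.23, 95% interval 0.38 to 1.32, limma adjusted p = 0.0177). These values rest on 67 reads in wild type and 147 reads in the libraries labelled Morrbid-/-, a ratio of 1.85 (95% counting interval 1.38 to 2.51). The limma call for Lag3 was lost without library 1 labelled Morrbid-/- (adjusted p = 0.0591), without library 2 (adjusted p = 0.0600), and when all 14 libraries shared 1 fit (adjusted p = 0.0992).

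Nt5e fell in the libraries labelled Morrbid-/-, by 0.32 on the log2 scale (SE 0.067, 95% interval -0.46 to -0.18, limma adjusted p = 0.00299). Its normalized counts were 1011, 1054, 1095 and 1001 in wild type, against 890, 873, 758 and 823 in those labelled Morrbid-/-. The genotypes did not overlap, and the means were 1040 ± 43.2 and 836 ± 59.5 (SD, n = 4 each). Without the mean-variance trend, the limma call for Nt5e was lost (adjusted p = 0.0642).

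Of the 8 members tested with IFN-beta, 2 were called higher and 1 lower. Of the 9964 genes tested, 10.1% were called, 5.25% higher and 4.84% lower, so calls were far more common in this setting than without IFN-beta. The genotypes did not overlap for 3 of the 8 members, and for 15.2% of all genes tested, 7.58% with the libraries labelled Morrbid-/- above and 7.60% with them below. The higher total reads of the libraries labelled Morrbid-/- moved with these differences, and their part in them was not tested. The quasi-likelihood test of edgeR on recovered reads gave log2 differences of 0.95 for Ctla4 (adjusted p = 6.74e-05), 0.88 for Lag3 (adjusted p = 0.0180) and -0.32 for Nt5e (adjusted p = 0.00265).

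Cd274 was abundant in both genotypes with IFN-beta and did not pass the test. Its normalized counts were 4217, 4409, 4630 and 4373 in wild type, against 4180, 4390, 3982 and 3397 in those labelled Morrbid-/-. The ranges overlapped, with library 4 labelled Morrbid-/- the lowest of the 8. The log2 difference was -0.15 (SE 0.065, 95% interval -0.28 to -0.015, limma adjusted p = 0.155). With the share of mitochondrial 16S reads as a covariate, it was -0.23 and passed the test (limma adjusted p = 0.0268).

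Pdcd1, the receptor of that ligand, had 29.5, 21.5, 22.2 and 29.3 in wild type, against 43.1, 37.6, 35.9 and 22.8 in those labelled Morrbid-/-. Of these 4, 3 lay above all wild-type libraries and library 4 lay among them. The log2 difference was 0.41 (95% interval -0.074 to 0.89, limma adjusted p = 0.297). Btla had 571, 434, 411 and 445 against 534, 470, 380 and 427, a log2 difference of -0.039 with a 95% interval of -0.25 to 0.17. Wild-type and Morrbid-/- labels were thus intermixed for Btla.

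Cd160 and Tigit were low with IFN-beta. Cd160 had normalized counts of 18.9, 13.3, 8.17 and 20.5 in wild type, against 14.7, 6.42, 8.09 and 8.21 in those labelled Morrbid-/-, a log2 difference of -0.63 with a 95% interval of -1.39 to 0.12. Tigit had 14.2, 6.14, 11.7 and 6.84 against 15.6, 20.2, 5.39 and 11.9, a log2 difference of 0.36 with an interval of -0.47 to 1.18. Both pairs of ranges overlapped, and neither gene passed (limma adjusted p = 0.302 and 0.641). Havcr2 was not tested: its reads were 2, 1, 2 and 2 in wild type, against 0, 4, 1 and 3 in those labelled Morrbid-/-, a ratio of 0.964 (95% counting interval 0.305 to 3.12).

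Whether the genotype difference itself changed with IFN-beta was tested as the interaction in 1 limma fit of all 14 libraries. Cd274 was the 1 of 7 tested members that passed, in the lower direction, while 1.33% of 9078 tested genes were called, 0.892% lower and 0.441% higher. Its genotype difference was 1.01 lower with IFN-beta than without on the log2 scale (-1.01, SE 0.15, 95% interval -1.31 to -0.70, limma adjusted p = 1.18e-04). That is, Cd274 was higher in the libraries labelled Morrbid-/- without IFN-beta and near wild type with it. The call for Cd274 held in all alternatives run.

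For the other 6 members the change in the genotype difference did not pass. It was 0.46 for Ctla4 (SE 0.22, limma adjusted p = 0.418) and -0.28 for Nt5e (SE 0.13, limma adjusted p = 0.373). Ctla4 and Nt5e were called in 1 setting only, and these values do not show that their genotype differences differed between settings. Btla had -0.32, Pdcd1 0.36, Cd160 -0.30 and Tigit 0.16, with limma adjusted p of 0.509, 0.725, 0.828 and 0.942. Lag3 and Havcr2 were below the mean of 10 without IFN-beta. In a fit with no filter on low values, the change was -0.28 for Lag3 (limma adjusted p = 0.880) and -1.42 for Havcr2 (limma adjusted p = 0.632).

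**Figure D2:**
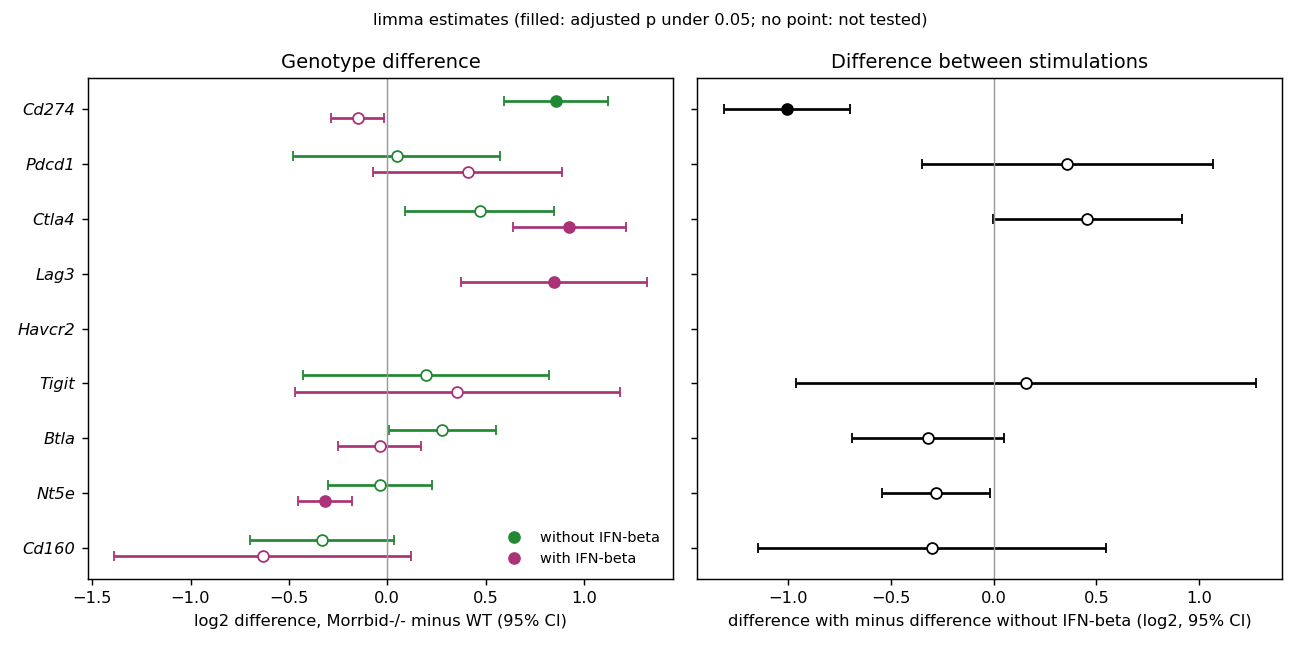
Genotype differences of the 9 genes as log2 differences (libraries labelled Morrbid-/- minus wild type) on the horizontal axis, with 95% intervals from limma, without IFN-beta, with IFN-beta, and as the difference between those settings. Filled points passed the test, and a gene without a point was not tested; Cd274 is at 0.86 without IFN-beta and at -0.15 with it, and Ctla4, Lag3 and Nt5e are the filled points with IFN-beta.

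Levels were then set side by side as RPKM, recovered reads scaled to the library's total and to the gene's exon length. Those lengths are from GENCODE M21 and may differ from the exons used for counting, which are not given. Overlaps of ranges between genes therefore reflect library scatter only. The tables with and without IFN-beta were normalized separately and differ in depth, so no value was tested between them. In wild type without IFN-beta, Cd274 (20.2 to 30.8) and Btla (19.4 to 26.6) were the most abundant and their ranges overlapped. Nt5e (15.4 to 17.9) and Cd160 (12.5 to 17.8) came next and overlapped each other. Ctla4 (9.20 to 12.7) met Cd160 at the edge and overlapped Tigit (8.30 to 11.8). Pdcd1 followed at 5.05 to 6.64, below all of these, and Lag3 (0.177 to 0.337) and Havcr2 (0 to 0.248) were at the limit of detection.

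In wild type with IFN-beta, Cd274 stood far above the other members at 170 to 189 RPKM. Nt5e was next at 37.1 to 40.6 and Btla at 18.7 to 25.7, and neither range overlapped a neighbour. Ctla4 was at 5.63 to 6.52. Below it, Pdcd1 (1.65 to 2.25) overlapped Tigit (0.991 to 2.26), which overlapped Lag3 (1.14 to 1.47), and Lag3 overlapped Cd160 at the edge (0.458 to 1.15). Havcr2 was the lowest of the 9, at 0.0558 to 0.127.

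In the libraries labelled Morrbid-/- without IFN-beta, Cd274 was at 43.4 to 54.7, above Btla at 26.8 to 32.5 with no overlap. Ctla4 was at 13.6 to 17.8 there and overlapped Nt5e (15.3 to 18.5). With IFN-beta, Cd274 was at 140 to 185, Nt5e at 29.0 to 34.0, Ctla4 at 8.86 to 14.2 and Lag3 at 2.20 to 2.86.

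As RPM, which scales to the library's total alone, Cd274 averaged 97.7 ± 21.2 in wild type without IFN-beta and 651 ± 27.7 with it, and 181 ± 21.5 and 606 ± 71.3 in the libraries labelled Morrbid-/-. Nt5e averaged 65.8 ± 5.24 and 154 ± 6.81 for wild type, and 66.5 ± 6.61 and 127 ± 9.38 for those labelled Morrbid-/-. The 7 inhibitory receptors did not share 1 direction between the tables. Cd160 averaged 39.9 ± 6.97 without IFN-beta and 2.25 ± 0.825 with it for wild type, and 32.7 ± 5.43 and 1.42 ± 0.557 for those labelled Morrbid-/-. Ctla4 averaged 20.5 ± 3.64 and 11.8 ± 0.723 for wild type, and 29.5 ± 4.28 and 23.5 ± 4.86 for those labelled Morrbid-/-. Pdcd1 and Tigit also had lower values in the libraries with IFN-beta (3.78 and 1.43 RPM in wild type, against 11.5 and 9.20 without it), while Lag3 had higher ones (2.68 against 0.484). Btla had similar values in wild type, 76.7 ± 12.1 without and 68.7 ± 10.2 with IFN-beta. Errors are SD with n = 3 without and n = 4 with IFN-beta.

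**Figure D3:**
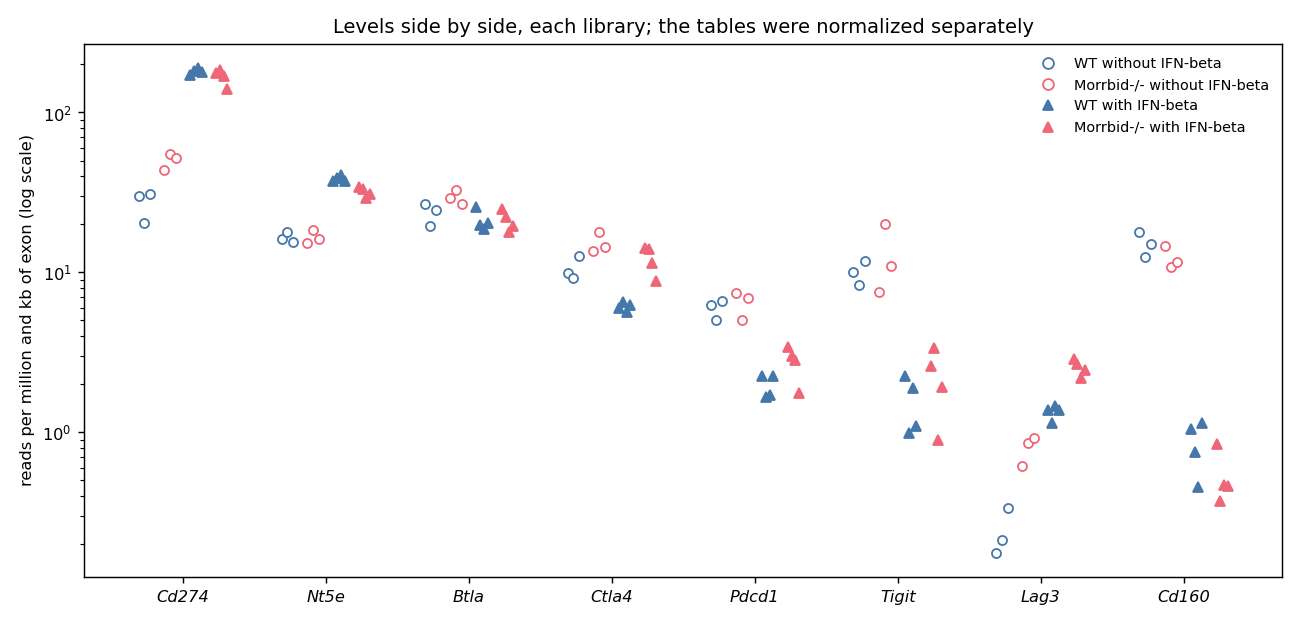
Levels of 8 of the 9 genes as RPKM (reads scaled to library total and exon length), on a log axis, in the 4 groups; points are libraries. Havcr2 is left out because it was at 0 in some libraries; Cd274 lies above all the others in both genotypes with IFN-beta, and Cd160 and Tigit lie lower in the libraries with IFN-beta than in those without it.

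Genes that act with these members were read as lists. The factors that induce PD-L1, interferon receptors with their kinases, transcription factors downstream of them and NF-kB subunits, changed in part. Without IFN-beta, 3 of 20 tested factors rose in the libraries labelled Morrbid-/-, 0 fell and 17 did not pass, where 0.538% of all genes tested were called higher. The median log2 difference was 0.18, against -0.0061 over all genes tested. Irf1, a transcription factor that acts on the Cd274 promoter, rose by 0.60 (limma adjusted p = 7.76e-04), from 395 ± 14.7 to 601 ± 47.8 normalized counts. Irf9, the DNA-binding subunit of the type I interferon response complex, rose by 0.54 (limma adjusted p = 0.0239). Irf9 kept its call without library 1 labelled Morrbid-/- but lost it without any 1 of the other 5 (limma adjusted p of 0.0510 to 0.396). Without the mean-variance trend, both Irf9 (limma adjusted p = 0.337) and Irf1 (limma adjusted p = 0.217) lost their calls. Irf1 kept its call in all other alternatives.

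With IFN-beta, 5 of these 20 factors rose, 1 fell and 14 did not pass, with a median of 0.13 against 0.0015 over all genes. Of all genes tested there, 5.25% were called higher and 4.84% lower. Jak2, a kinase of cytokine receptors, rose by 0.55 (limma adjusted p = 9.93e-07), from 2907 ± 170 to 4264 ± 244 normalized counts. The NF-kB subunit Rela rose by 0.67 (limma adjusted p = 1.04e-05) and Nfkb1 by 0.41 (limma adjusted p = 7.70e-05). Hif1a, the hypoxia-inducible factor, rose by 0.27 (limma adjusted p = 0.00453). Irf1 fell by 0.19 (limma adjusted p = 0.0245), from 3227 ± 141 to 2821 ± 115. The genotype difference of Irf1 (-0.79, limma adjusted p = 1.07e-05) and of Irf9 (-0.53, limma adjusted p = 0.00470) was lower with IFN-beta than without, as that of Cd274 was, though Irf9 missed the threshold without the mean-variance trend (adjusted p = 0.0549).

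Ligands of the receptors did not pass in either setting, with 0 of 6 called in each and medians of 0.18 and 0.017. Cd86, a ligand of CTLA-4 and CD28, had 12.4 ± 2.91 normalized counts in wild type and 27.2 ± 0.701 in the libraries labelled Morrbid-/- without IFN-beta (log2 difference 1.09, limma adjusted p = 0.153). It passed when all 14 libraries shared 1 fit (limma adjusted p = 1.10e-06). With IFN-beta, Cd86 had 1431 ± 154 and 1370 ± 39.8 (limma adjusted p = 0.665). The difference between settings did pass for Cd86 (-1.15, SE 0.16, limma adjusted p = 6.87e-05), 1 of 6 ligands tested for it. Tnfrsf14, the ligand of BTLA and CD160, was at -0.19 with IFN-beta (limma adjusted p = 0.112).

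Of the other inhibitory receptors, 0 of 11 passed without IFN-beta, and 1 of 10 rose and 2 fell with it. Slamf6, a homophilic receptor of the SLAM family, fell by 0.50 (SE 0.070, limma adjusted p = 3.63e-05), from 1551 ± 137 to 1098 ± 83.6 normalized counts. Cd96, which shares the ligand PVR with TIGIT, fell by 0.31 (limma adjusted p = 0.0123). Lilrb4a, an immunoglobulin-like inhibitory receptor, rose by 0.49 (limma adjusted p = 0.0436). Over all genes tested with IFN-beta, 10.1% were called, and the 1 higher call of this list, Lilrb4a, held without only 1 of the 8 single libraries.

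Downstream inhibitory signalling had 0 of 22 genes called without IFN-beta, and 2 higher and 1 lower of 22 with it. Over all genes tested, 0.635% were called without IFN-beta and 10.1% with it. These calls do not set this list, or that of trafficking below, apart. Cblb, a ubiquitin ligase that limits T cell activation, rose by 0.27 (limma adjusted p = 0.00430), and Ubash3a, a phosphatase family member, rose by 0.42 (limma adjusted p = 0.0235). Sh2d1a, the adaptor of SLAM family receptors, fell by 0.57 (limma adjusted p = 0.0175). Among genes of receptor trafficking and stability, 0 of 14 were called without IFN-beta and 1 of 14 with it. That gene was Cmtm6, which keeps PD-L1 at the cell surface, and it fell by 0.23 (limma adjusted p = 0.0192), from 2121 ± 150 to 1811 ± 93.3. The adenosine pathway around Nt5e had 0 of 4 called without and 0 of 5 with IFN-beta. Dpp4, which encodes CD26, was at -0.16 with IFN-beta (limma adjusted p = 0.0511). It passed among genes with a mean of at least 50 (limma adjusted p = 0.0425), by edgeR (adjusted p = 0.0489), by DESeq2 (adjusted p = 0.0336) and without library 4 labelled Morrbid-/- (limma adjusted p = 0.0365).

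Transcription factors known to act on the receptor genes had 1 of 20 called without IFN-beta, and 4 of 21 with it, all higher, where 0.538% and 5.25% of all genes tested were called higher. Eomes, a T-box factor of CD8 effector and memory cells, rose by 0.84 without IFN-beta (limma adjusted p = 0.0223), from 52.2 ± 11.8 to 92.8 ± 7.84. That call was lost when wild-type library 2 or any of the 3 libraries labelled Morrbid-/- was left out, with limma adjusted p between 0.0566 and 0.197. Eomes also lost it without the mean-variance trend (limma adjusted p = 0.297) and by DESeq2 (adjusted p = 0.0541). With IFN-beta, Tcf7, a factor of naive and memory T cells, rose by 0.41 (limma adjusted p = 1.05e-04), from 2724 ± 194 to 3632 ± 288. Jun rose by 0.28 (limma adjusted p = 0.00808), Nr4a2 by 0.49 (limma adjusted p = 0.0116) and Fosl2 by 0.42 (limma adjusted p = 0.0278). Of the 20 factors tested for it, Tcf7 was the 1 whose genotype difference changed between settings (0.52, limma adjusted p = 0.0102), and it did not pass without the mean-variance trend (adjusted p = 0.129).

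The costimulatory counterparts had 0 of 9 called without IFN-beta and 1 of 9 with it, where 0.635% and 10.1% of all genes tested were called. Tnfrsf18, the costimulatory receptor GITR, rose by 0.47 (limma adjusted p = 0.0459), from 74.7 ± 12.5 to 103 ± 15.1. Cd28, which competes with CTLA-4 for ligand, was at -0.029 without and -0.19 with IFN-beta, with limma adjusted p of 0.982 and 0.162.

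Several list calls with IFN-beta depended on single libraries or on the method, while those of Slamf6, Jak2, Rela, Nfkb1 and Tcf7 held in all alternatives run. The calls of all genes named below were lost without the mean-variance trend. Cd96 lost its call without wild-type library 1 (limma adjusted p = 0.0638), and Nr4a2 lost it without library 2 labelled Morrbid-/- (limma adjusted p = 0.0764). Ubash3a lost it without wild-type library 1 or library 2 or 4 labelled Morrbid-/- (limma adjusted p of 0.0666 to 0.103). Sh2d1a lost it without wild-type library 1 or 2 or library 2 labelled Morrbid-/- (0.0600 to 0.0779). Cmtm6 lost it without wild-type library 2 or 3 or library 1 or 2 labelled Morrbid-/- (0.0570 to 0.0763). Irf1 lost it without wild-type library 2 or 4 or library 1 or 3 labelled Morrbid-/- (0.0653 to 0.0743), and Fosl2 without wild-type library 1 or 4 or library 1 or 2 labelled Morrbid-/- (0.0599 to 0.123). Tnfrsf18 lost it without wild-type library 1, 2 or 3 or library 2 or 4 labelled Morrbid-/- (0.0612 to 0.143). Lilrb4a kept it only without library 2 labelled Morrbid-/-, with limma adjusted p of 0.0526 to 0.178 otherwise. Cblb, Hif1a and Jun kept theirs whichever single library was left out and lost it without the mean-variance trend, and Jun also when all 14 libraries shared 1 fit (limma adjusted p = 0.283). Cd96, Lilrb4a, Sh2d1a, Cmtm6, Irf1 and Tnfrsf18 lost theirs in that fit too. With the 16S share as covariate, Cd96, Sh2d1a, Ubash3a, Nr4a2, Fosl2 and Tnfrsf18 lost theirs (limma adjusted p of 0.0822 to 0.155). Equal totals lost Cmtm6 and Irf1, and no filter on low values lost Lilrb4a and Tnfrsf18. By DESeq2, Lilrb4a, Fosl2 and Tnfrsf18 did not pass, nor did Tnfrsf18 by edgeR.

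**Figure D4:**
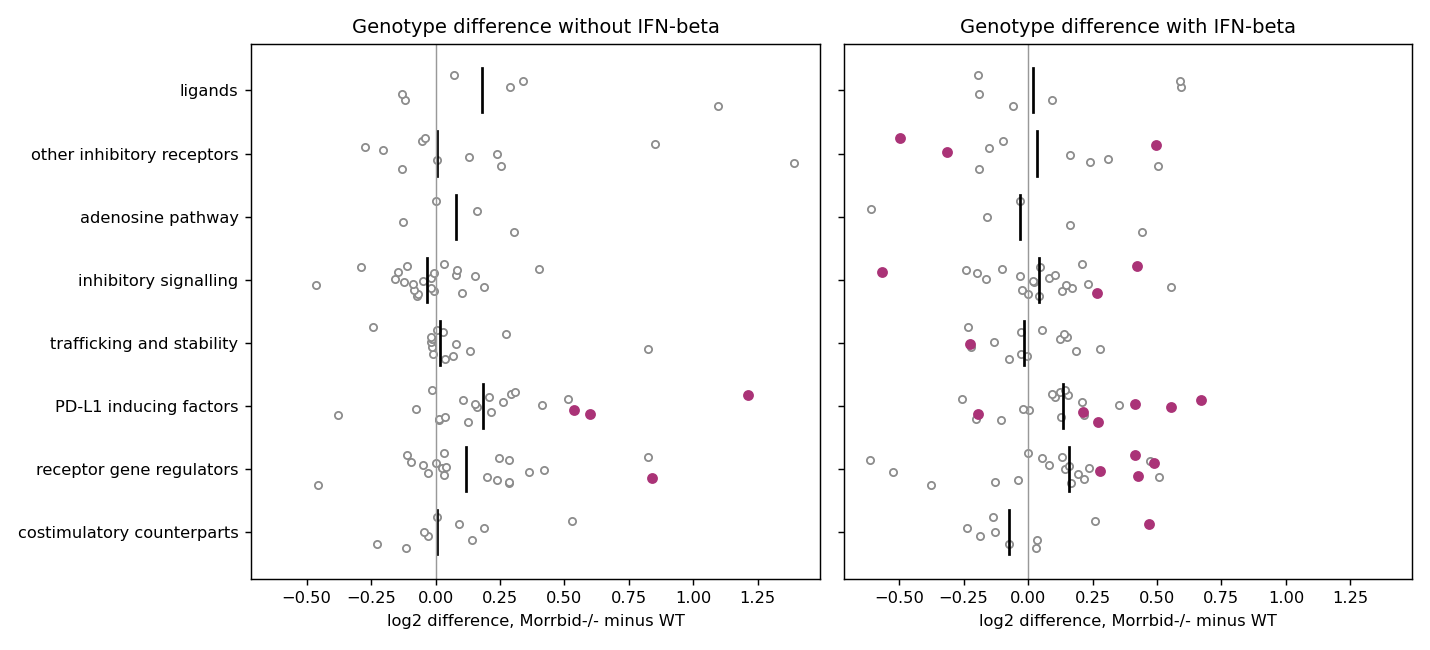
Log2 differences (libraries labelled Morrbid-/- minus wild type) of the tested genes of 8 lists, without and with IFN-beta. Each point is a gene, filled magenta where it passed the limma test, and the black line is the list's median; called genes are 3 PD-L1 inducing factors and 1 receptor gene regulator without IFN-beta, and include 5 higher and 1 lower PD-L1 inducing factors with it.

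Markers of other cells were read beside these results. CTLA-4 is abundant in regulatory T cells. Of the CD4 and regulatory T cell list, Cd4 was absent from the genes listed in either setting, so it has no values here. Foxp3, its defining regulatory marker, was near 0, at 0 to 1.53 normalized counts in wild type and 0 to 3.93 in the libraries labelled Morrbid-/- without IFN-beta, and at 2.05 to 7.08 and 4.56 to 9.16 with it. Zbtb7b was at 0 in every library without IFN-beta and was not listed with it. Ikzf2 was the 1 gene of the list high enough to be tested, and it was called higher with IFN-beta only. The summed list, 3 of 4 genes without and 2 of 4 with IFN-beta, was nearly all Ikzf2. It ran from 155 to 313 in wild type and 261 to 335 in the libraries labelled Morrbid-/- without IFN-beta, and from 612 to 726 and 751 to 910 with it, where the genotypes did not overlap. The part of these transcripts in the differences of Ctla4 and Lag3 was not tested.

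Memory-phenotype CD8 T cell markers, 5 of 6 genes, summed to 299 to 309 in wild type and 335 to 364 in the libraries labelled Morrbid-/- without IFN-beta, and to 1674 to 1912 and 1951 to 2357 with it. The genotypes did not overlap in either setting. Without IFN-beta, the higher sum came mostly from Eomes, while Il2rb, the largest term, averaged 239 in wild type and 226 in the libraries labelled Morrbid-/- (limma adjusted p = 0.963). Ccl5 (2.90 in wild type and 10.7), Ly6c2 (5.01 and 8.78) and Cxcr3 (4.65 and 7.03) averaged higher under that label. They were too low to be tested in that setting. With IFN-beta, the log2 difference was above 0 for all 4 tested markers, with a median of 0.45. Of these 4, 1 was called, Ly6c2, which rose by 1.01 on the log2 scale (limma adjusted p = 1.36e-04). Eomes averaged 1322 in wild type and 1544 in the libraries labelled Morrbid-/-, and Il2rb averaged 417 and 448 (limma adjusted p = 0.581 for Il2rb). PD-L1 is also made by myeloid cells. Their markers, 7 of 10 genes without IFN-beta, summed to 20.8 to 32.2 in wild type and 26.4 to 40.6 in the libraries labelled Morrbid-/-. These ranges overlapped, and the genes did not share 1 direction. Itgam averaged 5.76 in wild type and 3.20 under the Morrbid-/- label, and Lyz2 averaged 1.49 and 0.44. The means of Cd68, Xcr1, Siglech, Itgax and Csf1r were higher under that label, with Csf1r at 0 and 0.44. With IFN-beta, 3 of 10 genes summed to 13.3 to 16.5 and 17.4 to 35.9, mostly Cd68, with Itgax and Itgam near 0, and the genotypes did not overlap. The part of memory and myeloid markers in the results was not tested. B cell markers, 2 of 5 genes, summed to at most 5.36 without and 28.4 with IFN-beta. The NK cell markers summed to at most 4.88, gamma-delta T cell markers to at most 24.7 and red cell markers to at most 1.04.

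The genes whose library-by-library pattern was most like that of Cd274 were ranked by root mean square difference of log2 values, each centred on its table mean, over 14 libraries and 5618 genes. The 5 nearest were Irgm2 (0.148), Parp9 (0.153), Parp11 (0.159), Tlr1 (0.169) and Trim21 (0.174), against a median of 0.356 over all genes. Irgm2, an interferon-inducible GTPase, had 185 normalized counts in wild type and 396 in the libraries labelled Morrbid-/- without IFN-beta, and 5455 and 4285 with it. The pattern includes the genotype difference, so the likeness is a description. Parp9 had 149 and 252 without IFN-beta, and 8268 and 7421 with it.

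**Figure D5:**
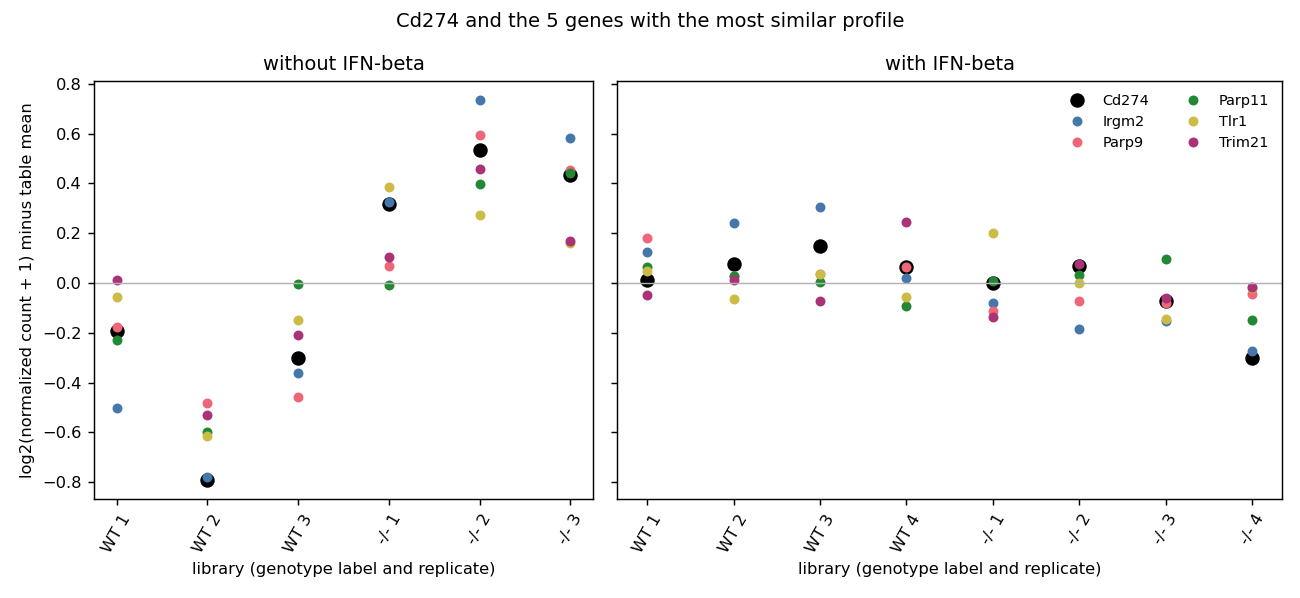
Log2(normalized count + 1) of Cd274 and its 5 most similar genes in the 14 libraries, each gene centred on its mean within its table, with libraries along the horizontal axis by group. Points are genes; those of Cd274 lie below the table mean in all 3 wild-type libraries and above it in all 3 labelled Morrbid-/- without IFN-beta, and the 5 other genes lie near them.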

How the data were processed

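Total RNA of 14 libraries was sequenced as 75-base pairs from 100 ng of RNA with a stranded kit, per the labels' protocols. Tools listed in the submitters' processing notes, with no roles, are Trimmomatic, STAR 2.5, featureCounts and DESeq2, and the listed builds are GRCm38 and mm10. The values are a signal: normalized read counts that the authors deposited in 2 tables, one for each setting, which were normalized separately. For the annotation, the use of strand and any filters, nothing is given in the sources used here.

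Dividing each library's values by the step that 1 read is worth recovered whole reads, within 0.01, for 100% of values. Within each table, limma 3.58.1 (R 4.3.3) compared the genotypes for genes with a mean of at least 10. It used log2 of the normalized count plus 1 and its mean-variance trend. Adjusted p-values are Benjamini-Hochberg values over all genes tested, with a threshold of 0.05, and log2 differences understate changes of low genes. The interaction was fitted on 14 libraries over 9078 genes. Alternatives included edgeR 4.0.16 and DESeq2 1.42.0 on recovered reads. All members were named. In each list, the text names up to 4 passing genes per direction. Where none passed, the 2 genes of smallest p were chosen, and the text gives values for only some of them. For members called with a mean of at least 50, the 5 most similar genes are named. Members and lists were chosen with earlier results of these data known. Some genes named only as context (Cd28 and, for comparison between settings, Cd86) were chosen after their values were seen. For 1 gene chosen this way the values are not reported here, although counts, medians and plots include it. Replicates differed by more than sampling noise (chi-square per degree of freedom 1.88 to 9.23). The tests were checked on simulated data. Exon lengths come from GENCODE M21 and coordinates and promoters from RefSeq GRCm38.p6. Counting intervals are exact, cover counting error only and, since reads carry no molecular identifiers, do not count independent molecules.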

Additional observations from a re-analysis of the deposited data

Results flagged for a closer look

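The genotype difference of Cd274 was itself different between the settings. Libraries labelled Morrbid-/- were 0.86 above wild type on the log2 scale without IFN-beta and -0.15 from it with IFN-beta, a tested difference of -1.01 (limma adjusted p = 1.18e-04). In groups of 4 libraries, 18 sets of member values were examined for a single outlying library and 0 were found, where chance gives about 1 in 20.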

How the results depend on the processing

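Over 75 gene results, 1473 values were recomputed under the alternatives: 1347 kept their direction and side of the threshold, 86 were no longer past it, 25 newly passed it and 15 turned in direction. Without IFN-beta, 59 genes were called, and 17 without the mean-variance trend, where 0 members were higher. There were 103 with the 16S share as covariate and 117 in 1 fit of all libraries. With IFN-beta, 1005 genes were called, and 305 without the trend (0 members lower) and 535 in 1 fit of all libraries (1 member higher). A mean of at least 50 left 1 member higher, since Lag3 was not tested, and the 16S covariate gave 2 members lower. Rescaling to equal totals gave 730 higher and 344 lower genes, 68.0% higher, against 523 and 482 (52.0%), and shifted the median log2 difference to 0.041. For the interaction, 121 genes were called, 66 without the trend and 191 with the 16S covariate. Leaving out 1 library gave 39 to 74 genes without IFN-beta, 609 to 1021 with it (1 to 2 members higher) and 97 to 143 for the interaction. Causes of these shifts were not tested.

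Values near 0 changed sign. Equal totals gave 0.014 for Nt5e without IFN-beta and 0.0014 for Btla with it, and the 16S covariate gave 0.073 for Btla. Leaving out 1 library gave -0.13 to 0.037 for Nt5e, -0.10 to 0.22 for Pdcd1 and -0.15 to 0.47 for Tigit without IFN-beta, -0.12 to 0.064 for Btla with it, and -0.15 to 0.032 for Dpp4 and -0.11 to 0.51 for Tigit in the interaction. Same-numbered libraries deviated together in part: r was 0.20, -0.021 and 0.15 for numbers 1 to 3 without IFN-beta and 0.041, 0.0033, 0.061 and 0.14 for 1 to 4 with it. Not every library correlated best with its own number, and the numbers were not taken as pairs. A fit that blocked on replicate number called 169, 1421 and 311 genes in the 3 comparisons, and its calls among the 9 members were the same, while Cd86 without IFN-beta (adjusted p = 0.0402) and Dpp4 with it (adjusted p = 0.0124) newly passed. Reads were few for Lag3 without IFN-beta (4 and 10 by genotype) and for Havcr2 without (2 and 9) and with it (7 and 8), which makes their counting intervals wide.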

Other observations

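The genes most like Ctla4 over the 14 libraries were Kdm2b (0.200), Eea1 (0.205), Odc1 (0.220), Dock9 (0.225) and Pfn1 (0.230), as root mean square differences of centred log2 values, against a median of 0.442 over all genes. Odc1, the rate-limiting enzyme of polyamine synthesis, had 541 normalized counts in wild type and 620 in the libraries labelled Morrbid-/- without IFN-beta, and 600.02 and 1022 with it. Kdm2b, a histone demethylase, had 363 and 395 without IFN-beta, and 676 and 1209 with it. The genes most like Nt5e were Hnrnph2 (0.0758), Ms4a6b (0.0769), Azi2 (0.0770), Orc3 (0.0785) and Mfsd6 (0.0854), against a median of 0.210. Ms4a6b had 738 and 752 normalized counts without IFN-beta, and 5950 and 4757 with it.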
